A study of Mus musculus with 11 samples.

Results

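Fatty acid oxidation and its peroxisomal branch were described through 38 genes, of 28692 genes in the count files, in the tubular cells of control and fibrotic mouse kidneys. The members were chosen by name: a gene was taken when its symbol was among 38 listed symbols. All 38 symbols were found. They fell into 8 role groups, from 2 transcriptional regulators through uptake, the carnitine shuttle and the mitochondrial spiral to peroxisomal beta-oxidation. Their UMIs were followed in proximal tubular (PT) and failed-repair cells, in cells of the loop of Henle and of the distal tubule, and in principal and intercalated cells of the collecting duct (CD).

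Single cell RNA-seq (10x Chromium, 3′ chemistry) was carried out on 11 kidney suspensions. Male C57Bl/6 mice, 10 weeks old at surgery, had unilateral ischemia/reperfusion (UIR, a clamp on the left renal pedicle for 30 minutes) or unilateral ureteral obstruction (UUO, a permanent ligature of the left ureter), and the kidneys were taken at day 28. Naive mice served as control. There were 5 control libraries (Ctrl, N1, N2, AN1 and AN2), 3 UIR libraries (UIR, UIR1 and UIR2) and 3 UUO libraries (UUO, UUO1 and UUO2). The study's methods give 3 mice per injury model for this platform and 5 naive mice matched for age, strain and sex, which equals the number of libraries in each group. No label ties a library to a mouse by name. Both models injure 1 kidney only. Library values below follow the order Ctrl, N1, N2, AN1, AN2, then UIR, UIR1, UIR2, then UUO, UUO1, UUO2.

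Fatty acids are the main fuel of the adult kidney tubule, and the PT, which reabsorbs most of the filtrate, is rich in both mitochondria and peroxisomes. Acyl groups are activated to coenzyme A esters, cross the mitochondrial membranes as carnitine esters and are shortened in a repeated cycle of dehydrogenation, hydration, a second dehydrogenation and thiolysis, while peroxisomes shorten very long and branched chains. Ppara, a fatty-acid-activated nuclear receptor that binds DNA as a heterodimer with RXR, and its coactivator Ppargc1a control many of these genes, and a fall of this programme in injured PT is a known feature of kidney fibrosis.

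Some of the members are neighbours in the genome. Hadha and Hadhb encode the alpha and beta subunits of the mitochondrial trifunctional protein, which carries out the last 3 steps on long chains. They lie head to head on chromosome 5 (GENCODE spans on GRCm38 are 30118304 to 30155162 for Hadha, minus strand, and 30155248 to 30184593 for Hadhb, plus strand). RefSeq places the start of Hadha further inside its GENCODE span, so that the RefSeq starts are 273 bases apart. The stretch between the RefSeq starts, most of which lies inside the GENCODE span of Hadha, is shown because both genes were followed together below. It is chr5:30154981-30155252, plus strand, in GRCm38.p6, and has a GC content of 60.3%.
Hadha to Hadhb: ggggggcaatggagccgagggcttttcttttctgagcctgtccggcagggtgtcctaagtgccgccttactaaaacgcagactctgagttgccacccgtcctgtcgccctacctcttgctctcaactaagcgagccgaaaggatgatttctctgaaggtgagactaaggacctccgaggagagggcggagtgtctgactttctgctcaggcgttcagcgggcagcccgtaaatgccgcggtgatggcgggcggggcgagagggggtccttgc

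Promoters were searched for the kind of site that the PPAR and RXR pair binds, which is a repeat of the hexamer AGGTCA with 1 base between the copies. The letters searched were AGGTCANAGGTCA on both strands, with up to 2 mismatches, in windows from 250 bases before to 50 bases after each RefSeq start in GRCm38.p6. A match was found in 3 of 35 member windows (8.57%), those of Fabp1, Etfa and Echs1, and in 1268 of all 32851 windows (3.86%). Windows were at hand for 33 members, and those of Crat, Acaa2, Decr1, Hsd17b4 and Adhfe1 were not analysed here. Etfa (an electron transfer flavoprotein subunit) and Echs1 (the short-chain enoyl-CoA hydratase) are shown because both fell in every distal class described below. Each line holds the 250 bases before the start, 5′ to 3′ on the gene's own strand, with the match in capitals. A match is a description of letters, and binding was not measured. Etfa is on chromosome 9 (chr9:55512244-55512493, minus strand) and Echs1 on chromosome 7 (chr7:140116422-140116671, minus strand), each match with 2 mismatches.
Etfa: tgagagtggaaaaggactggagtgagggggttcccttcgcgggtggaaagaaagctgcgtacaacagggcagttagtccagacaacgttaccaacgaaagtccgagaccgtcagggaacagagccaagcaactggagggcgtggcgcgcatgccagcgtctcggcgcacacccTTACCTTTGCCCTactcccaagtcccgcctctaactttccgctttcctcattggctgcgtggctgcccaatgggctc
Echs1: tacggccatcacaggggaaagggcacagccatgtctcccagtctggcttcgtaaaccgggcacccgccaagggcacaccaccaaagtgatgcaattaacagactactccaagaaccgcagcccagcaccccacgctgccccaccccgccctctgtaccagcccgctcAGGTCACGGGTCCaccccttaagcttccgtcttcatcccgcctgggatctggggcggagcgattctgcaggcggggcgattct

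The libraries held 49503312 to 117043590 UMIs each. After filtering, 10253 control, 16937 UIR and 13349 UUO cells were kept. Any 2 libraries shared at most 17 cell barcodes. Barcodes with over 30% mitochondrial UMIs made up 57.0% to 78.8% of those called in control, 23.8% to 37.1% in UIR and 3.16% to 7.86% in UUO libraries, so the control cells are a more strongly selected set. PT cells numbered 6968 in control, 2585 in UIR and 162 in UUO (33 to 88 per library). The 12 PT markers summed to 12464 to 13662 CPM (UMIs of a gene scaled to the same total of UMIs in every pool of a library and class) in control PT and to 247 to 475 in control loop of Henle. The library Ctrl stood apart in its free RNA: its empty droplets held the members at 10634 CPM, those of the other control libraries at 2979 to 3296. The member count without Ctrl is given where it moved most. The 3 groups of control libraries (Ctrl, N and AN) carry different label stems, and no such stem ties an injured library to them.

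In naive kidneys the members were a PT programme with a set of exceptions. Their summed level in PT was 10300.3 CPM at the lowest, 10910.5 at the median and 12589 at the highest of the control libraries, against 4098, 4890.1 and 5025 in loop of Henle. It was 4283 to 5409 in distal tubule, 2734 to 3348 in CD principal and 3304 to 4203 in CD intercalated cells. Within libraries, 28 of 37 members tested were higher and 7 lower in PT than in loop of Henle (edgeR's quasi-likelihood test, library as a block, Benjamini-Hochberg adjusted p under 0.05, as in all comparisons below). Of all 10754 genes tested, 30% were higher and 24.4% lower. The members had a median log2 fold change of 1.204 and all genes 0.04.

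The members with the largest PT levels relative to loop of Henle were peroxisomal or act at the entry of the pathway. Eci3, a peroxisomal enoyl-CoA isomerase, was higher by a log2 fold change of 5.97 ± 0.22 (SE), Slc27a2, a very-long-chain acyl-CoA synthetase and fatty acid carrier, by 5.91 ± 0.15, and Pecr, a peroxisomal trans-2-enoyl-CoA reductase, by 5.28 ± 0.17. The 7 members lower in PT were Fabp3 (-2.01), the coactivator Ppargc1a (-1.84), Hadhb (-1.15), Hadha (-1.08), Cpt1a (-1.02), Acsl1 (-0.71) and Acot2 (-0.57). Fabp3 is a cytosolic fatty acid binding protein, Cpt1a the rate-limiting carnitine palmitoyltransferase of the outer mitochondrial membrane, and Acsl1 a long-chain acyl-CoA synthetase. Acadvl and Echs1 did not pass the test, with log2 fold changes of 0.14 and 0.24. Fabp1, the liver-type binding protein, was nearly absent from these kidneys, at 1.62 to 3.19 CPM in control PT and without a UMI in loop of Henle.

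**Figure D1:**
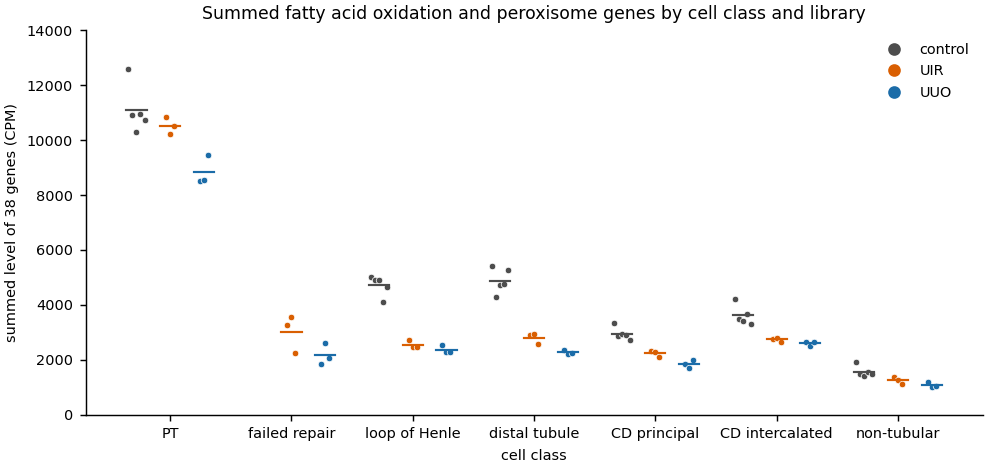
Summed level of the 38 members in CPM, by tubular class. Each point is 1 library, coloured by group (control, UIR, UUO), and the line is the mean of the group. The control PT libraries lie between 10300.3 and 12589 CPM, above every library of the other classes, and in loop of Henle and distal tubule every injured library lies under every control library.

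Along the PT the members were divided between segments. Cells were named S1-like, S2-like or S3-like from markers that include no member, and 25 of 37 members were higher and 9 lower in S3-like than in S1-like cells of the same control libraries. Because 31.1% of the 7934 genes tested were higher and 35.1% lower, segment differences were common among all genes. The clusters were built on other genes of the same cells, so this contrast describes segments and is no independent test of them. The summed level was 6659 to 8259.7 CPM in S1-like, 11749 to 14296 in S2-like and 14558 to 16221 in S3-like cells.

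The regulators, Acaa2, Fabp3 and Acsl1 were highest in S1-like cells. Ppargc1a averaged 162 CPM in S1-like, 40.4 in S2-like and 8.64 in S3-like cells (5 libraries each), and Ppara 77.3, 42.2 and 16.9 CPM. Acaa2, the mitochondrial 3-ketoacyl-CoA thiolase, averaged 435, 141 and 17.4 CPM, a log2 fold change of -4.46 ± 0.17. Fabp3 (-4.02 ± 0.26) and Acsl1 (-3.98 ± 0.21) followed the same order. Other enzymes were highest in S3-like cells. Acsm3, a medium-chain acyl-CoA synthetase, averaged 6.11, 399.7 and 1087 CPM (log2 fold change 7.84 ± 0.15), Nudt19, a peroxisomal coenzyme A hydrolase, 57.0, 856 and 1427 CPM (5.01 ± 0.10), and the cytosolic thioesterase Acot1 15.7, 95.5 and 213 CPM (4.12 ± 0.15). The neighbour of Acsm3 on chromosome 7, Acsm2, ran the other way, at 2373, 2129.8 and 933 CPM. Acadm, the medium-chain acyl-CoA dehydrogenase, averaged 288, 792 and 2799.6 CPM. Acsm1, Cpt1a and Crat did not pass the test between segments.

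**Figure D2:**
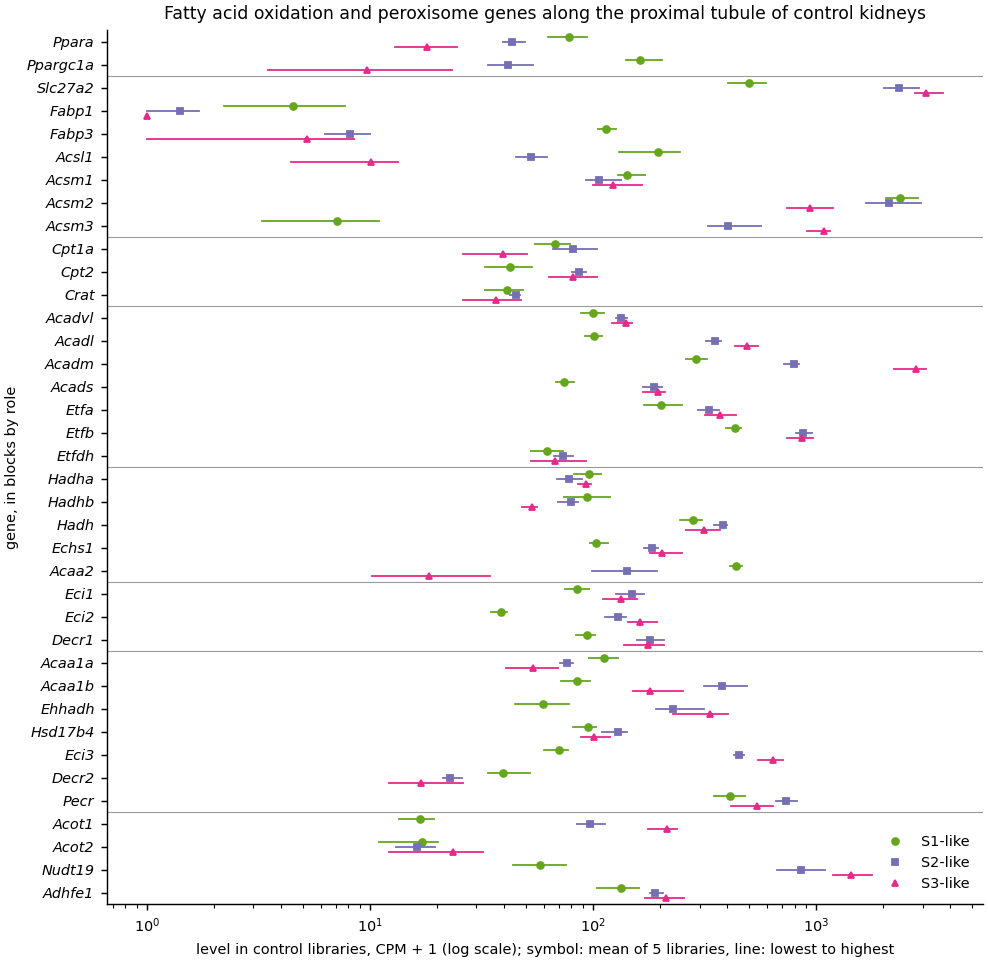
Levels of the 38 members in S1-like, S2-like and S3-like PT cells of the 5 control libraries, on a logarithmic axis of CPM + 1. The point is the mean of the 5 libraries and the line runs from the lowest to the highest library. Acaa2, Ppargc1a, Fabp3 and Acsl1 are highest in S1-like cells, and Acsm3, Nudt19, Acot1 and Acadm in S3-like cells.

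In the PT cells that remained at day 28 after UIR, 4 of 38 members fell and 2 rose. Among all 11522 genes tested in PT, 4.96% were lower and 8.46% higher, so the member count was not far from the background. The members that fell were the 2 regulators, Acsl1 and Acaa2. Those that rose were the thioesterases Acot1 and Acot2. No member of the carnitine shuttle, the acyl-CoA dehydrogenases, the auxiliary enzymes or the peroxisomal group passed the test. The median log2 fold change of the members was -0.07, that of all genes -0.01, and the summed level was 10213 to 10848 CPM. The PT cells compared were not spread alike over clusters: sub-cluster 4, with no segment name and a median of 849.5 UMIs per cell, held 0.574% of control, 32.7% of UIR and 35.2% of UUO PT cells. In S2-like cells alone, which leave it out, 1 member fell and 2 rose after UIR, where 2.88% of 11252 genes were lower and 6.45% higher. This alternative was added after the data had been seen. The S2-like cells were not spread alike over clusters either. Their sub-cluster 9 held 0.488% of control and 5.53% of UIR PT cells (34 and 143 cells).

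After UUO, 8 of 38 members fell and none rose, against 1.84% of genes lower and 2.4% higher. They were Acsm3, Acsm2 and Fabp3 of the uptake and activation group, the short-chain dehydrogenase Acads, Acaa2, the peroxisomal Pecr and Eci3, and Nudt19. At the median they changed by -0.43 on the log2 scale, and all genes by -0.13. An unadjusted p under 0.05 was reached by 18 members on the lower and 1 on the higher side. The share of all genes at this unadjusted limit was not computed, so these counts have no background beside them. The summed level was 8510.2 to 9441 CPM, under all control libraries. These pools were small, with 33 to 88 cells and 43507 to 440314 UMIs per library, against 7245056 to 11188417 UMIs in control. The levels of single UUO libraries in PT given below can therefore rest on a few UMIs. The correlation of log levels between UUO libraries was 0.43 to 0.63, against 0.98 to 0.99 in control. In simulated data with the same depth, 18% of 2-fold and 53.1% of 4-fold changes were recovered in PT of UUO, against 86.7% and 98% in PT of UIR, so a member that did not pass in UUO may still have changed.

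Both regulators were lower after UIR. Ppara stood at 46.7, 46.7, 53.1, 47.7 and 47.1 CPM in control, at 24.9, 35.6 and 35.2 in UIR and at 111, 23.0 and 40.9 in UUO PT. Ppargc1a stood at 56.1, 62.5, 87.3, 56.2 and 55.4 CPM in control, at 47.9, 45.1 and 34.1 in UIR and at 66.7, 46.0 and 38.6 in UUO. Every UIR library lay under every control library for both genes. The UUO libraries lay on either side of the controls for Ppara, and inside or under their range for Ppargc1a. The log2 fold change in UIR was -0.55 ± 0.13 (adjusted p = 0.0034) for Ppara and -0.54 ± 0.15 (0.013) for Ppargc1a. In UUO neither passed (-0.28 ± 0.31, adjusted p = 0.70, and -0.81 ± 0.35, 0.23). The UUO value of Ppara rests on 24 UMIs in all. In S2-like cells alone neither passed in UIR, with log2 fold changes of -0.39 ± 0.18 (adjusted p = 0.187) for Ppara and -0.08 ± 0.17 (0.832) for Ppargc1a. Both are highest in S1-like cells, and these made up 8.74% of PT cells in control, 1.82% in UIR and 0.617% in UUO. The part of this shift in the fall was not tested.

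Acsm2 and Slc27a2 were the most abundant members of the uptake and activation group. Acsm2, at 2618, 1742, 1626, 1913 and 1888 CPM in control, stood at 2118, 2310.0 and 2140.2 in UIR and at 1622, 1080.3 and 1392 in UUO. Slc27a2 stood at 2080.0, 1599, 1373, 1640.0 and 1824 CPM in control, at 1556, 1379 and 1417 in UIR and at 755, 1034 and 1631 in UUO. The UUO libraries lay under all controls for Acsm2 alone, which fell (-0.88 ± 0.20, adjusted p = 0.0056), whereas Slc27a2 did not pass (-0.76 ± 0.24, 0.084). Acsm3, an S3-like gene, stood at 441, 303, 233, 279 and 304 CPM in control, at 352, 347 and 246 in UIR and at 311, 138 and 86.3 in UUO, and fell in UUO (-1.63 ± 0.31, adjusted p = 0.0022) although 1 UUO library overlapped the controls. Fabp3 stood at 60.96, 56.5, 60.2, 51.3 and 42.2 CPM in control and 44.4, 46.0 and 20.4 in UUO, where it fell (-1.33 ± 0.36, adjusted p = 0.023) on 13 UMIs. Its UUO range overlapped that of control. Acsl1, at 86.8 to 105 CPM in control, stood at 59.4, 74.5 and 56.6 in UIR, under all controls (-0.49 ± 0.12, adjusted p = 0.0046), and at 46.0 to 111 in UUO. In S2-like cells alone Acsl1, an S1-like gene, had a log2 fold change of -0.05 ± 0.23 in UIR (adjusted p = 0.959). Fabp1 and Acsm1 passed in neither model.

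The carnitine shuttle did not pass the test in PT of either model. Cpt1a stood at 89.8, 76.7, 61.9, 62.0 and 67.9 CPM in control, at 69.7, 81.1 and 85.1 in UIR and at 156, 69.0 and 72.7 in UUO. Cpt2, the inner-membrane transferase, stood at 77.8, 74.7, 70.7, 68.0 and 75.4 CPM in control, at 72.5, 71.8 and 88.5 in UIR and at 178, 46.0 and 84.0 in UUO. Carnitine acetyltransferase (Crat) stood at 42.7 to 47.8 CPM in control, at 45.7, 46.6 and 54.0 in UIR and at 22.2, 115 and 59.0 in UUO. All 3 genes overlapped the controls in both models, with the widest spread in UUO.

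Among the acyl-CoA dehydrogenases and electron carriers, only Acads in UUO passed. It stood at 169, 163, 169, 163 and 151 CPM in control, at 147, 138 and 143 in UIR and at 22.2, 115 and 111 in UUO (-0.91 ± 0.23, adjusted p = 0.016). Acadm, the most abundant dehydrogenase, stood at 819, 778, 752, 779 and 791 CPM in control, at 576, 619 and 572 in UIR and at 333, 459.7 and 813 in UUO. All UIR libraries lay under all controls, yet the gene did not pass over all PT cells (-0.38 ± 0.19, adjusted p = 0.21). In S2-like cells alone Acadm was the only member that fell after UIR (-0.37), with Acot1 (0.68) and Acot2 (0.90) the only ones that rose. In S3-like cells its level was 2241 to 3112 CPM in the control and 948 and 1053 in the 2 UIR libraries with 20 cells or more, which was not tested. Etfb, the electron transfer flavoprotein beta subunit, stood at 759 to 843 CPM in control, 678 to 930.1 in UIR and 621 to 824 in UUO, and Etfa at 289.5 to 365, 307 to 326 and 311 to 345 CPM. For both, the groups overlapped.

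Acaa2 fell in PT of both models. It stood at 258, 313, 352, 273 and 250.04 CPM in control, at 189, 152 and 201 in UIR and at 133, 229.8 and 143 in UUO. All injured libraries lay under all control libraries, with log2 fold changes of -0.66 ± 0.14 (adjusted p = 0.00067) in UIR and -1.17 ± 0.22 (0.00094) in UUO. Acaa2 is the member with the steepest gradient toward S1-like cells, and S1-like cells were 8.74% of control, 1.82% of UIR and 0.617% of UUO PT cells. In S1-like cells it stood at 412 to 464 CPM in control and at 312 and 315 in UIR, and in S2-like cells at 98.1 to 193 and 86.0 to 136 CPM. In S2-like cells alone Acaa2 did not pass in UIR, with a log2 fold change of -0.30 ± 0.21 (adjusted p = 0.446). The part of segment shares in its fall was not tested. The other steps of the spiral did not pass: Hadh stood at 343 to 399 CPM in control, 307 to 351 in UIR and 244 to 391 in UUO, and Echs1 at 157 to 176, 147 to 168 and 115 to 244 CPM. Hadha was at 80.7 to 99.5 CPM in control and Hadhb at 81.7 to 99.7, with log2 fold changes in UIR of -0.08 and -0.10.

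The auxiliary enzymes for unsaturated fatty acids did not pass the test in PT of either model. Decr1, the 2,4-dienoyl-CoA reductase, stood at 142 to 178 CPM in control, 139.9 to 168 in UIR and 111 to 229.8 in UUO. The isomerase Eci1 stood at 117 to 148 CPM in control, 134 to 146 in UIR and 88.9 to 138 in UUO, and Eci2 at 93.2 to 110.1, 101 to 105 and 0 to 141 CPM. The UIR libraries lay within or close to the control ranges, and the UUO libraries on both sides of them for Decr1 and Eci2 and inside or under them for Eci1.

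In the peroxisomal group, Pecr and Eci3 fell in UUO. Pecr stood at 646, 716, 677, 648 and 600.2 CPM in control, at 562, 543 and 581 in UIR and at 489, 506 and 447 in UUO. Its injured libraries all lay under the controls, and it passed in UUO (-0.81 ± 0.18, adjusted p = 0.0047) and not in UIR (-0.20 ± 0.14, 0.39). Eci3 stood at 337, 326, 296, 355 and 374 CPM in control, at 337, 324 and 277 in UIR and at 199.98, 207 and 259 in UUO, where all libraries lay under the controls (-0.75 ± 0.20, adjusted p = 0.025). Acaa1b, a peroxisomal thiolase, stood at 225 to 329 CPM in control, 229.5 to 317 in UIR and 268 to 322 in UUO. It did not pass, nor did Acaa1a, Ehhadh (the bifunctional enzyme), Hsd17b4 (the D-bifunctional protein) and Decr2, whose log2 fold changes in UUO were 0.30, -0.18, -0.17 and -0.52.

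The thioesterases were the only members that rose in PT. Acot1 stood at 76.9, 87.1, 75.9, 71.3 and 80.5 CPM in control, at 150.2, 121 and 138 in UIR and at 133, 138 and 127 in UUO. Every injured library lay above every control, though the UUO values come from the shallow pools. The gene passed in UIR (0.83 ± 0.11, adjusted p = 6.8e-07) and not in UUO (0.48 ± 0.21, 0.21). Acot2 stood at 15.6, 19.5, 19.1, 14.0 and 18.8 CPM in control, at 23.6, 28.6 and 29.98 in UIR (0.69 ± 0.15, adjusted p = 0.0011) and at 22.2, 0 and 22.7 in UUO. Acot1 and Acot2 are close paralogs next to each other on chromosome 12 (84009490 to 84018371 and 83987861 to 83993873). How reads that match both were counted is not given in the sources used here. Nudt19 stood at 788, 599, 459, 743 and 547 CPM in control, at 603, 473 and 544 in UIR and at 400.0, 621 and 349.8 in UUO, and fell in UUO (-0.93 ± 0.21, adjusted p = 0.0066) with 1 UUO library inside the control range. Adhfe1, a mitochondrial hydroxyacid-oxoacid transhydrogenase, stood at 162 to 186 CPM in control, 139 to 149 in UIR and 127 to 156 in UUO. Its injured libraries lay under all controls, but it passed in neither model (adjusted p = 0.17 and 0.057).

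**Figure D3:**
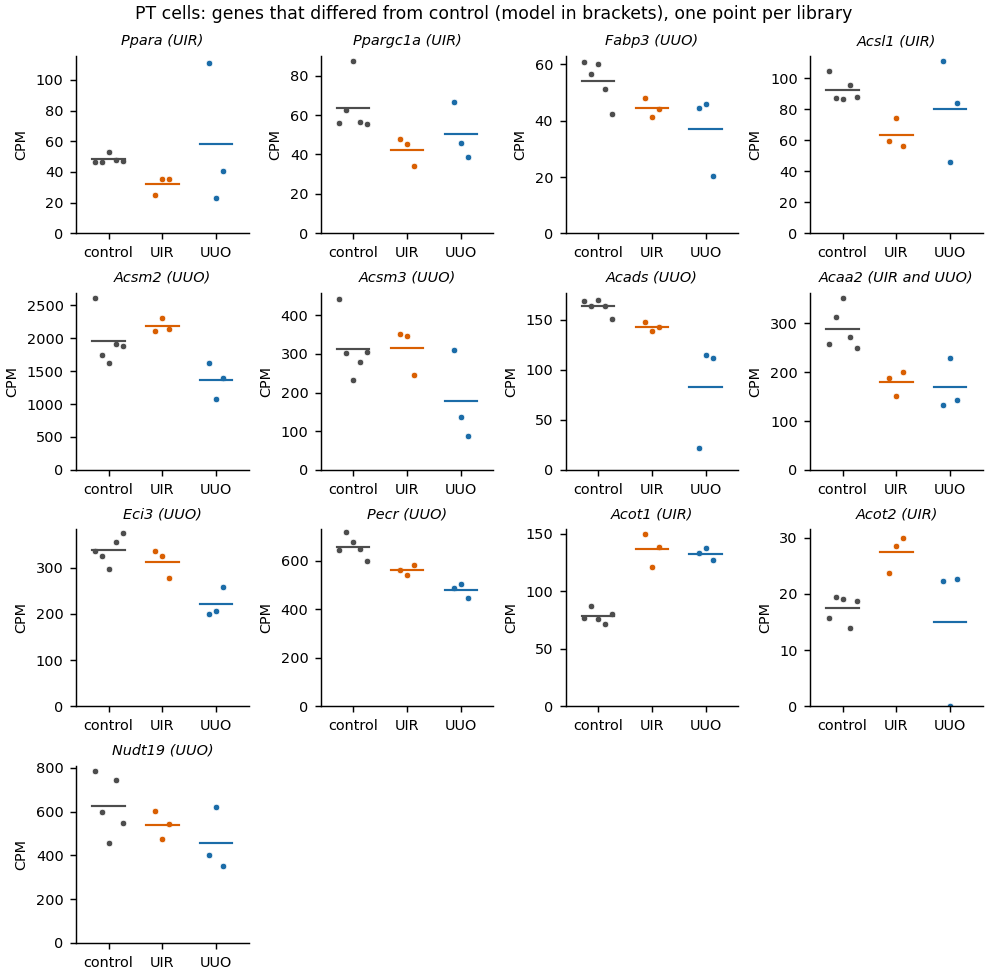
Levels in PT, in CPM, of the 13 members that passed the test in PT of UIR or UUO. Each point is 1 library and the line is the mean of its group. Acaa2 and Pecr lie lower in every injured library than in every control, and Acot1 lies higher. The UUO points of Ppara run from 23.0 to 111, on both sides of the controls.

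Between the models, Acsm3 (-1.68 ± 0.32, adjusted p = 0.019) and Acsm2 (-1.08 ± 0.22, 0.015) were lower in UUO than in UIR PT, where 0.26% of all genes were lower and 0.122% higher. This count rests on single libraries, with 0 members without the UUO library UUO1, 1 without UIR1 and 8 without UUO2. Markers of macrophages summed to 6.76 to 11.6 CPM in control PT, 81.8 to 138 in UIR and 95.4 to 778 in UUO, and failed-repair markers to 60.1 to 144, 229.9 to 338 and 368 to 755 CPM. Their part in the PT results was not tested. After free RNA was subtracted, all 6 calls in UIR were kept, and in UUO Fabp3, Acads and Eci3 no longer passed. Their log2 fold changes moved little, to -1.29, -0.85 and -0.70 (from -1.33, -0.91 and -0.75), with adjusted p of 0.0742, 0.0634 and 0.0945. A stricter limit of 15% mitochondrial UMIs gave 3 calls in UIR and 4 in UUO.

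The loop of Henle showed a broad fall. After UIR, 27 of 37 members fell and none rose, and after UUO the same counts were reached, where 14.5% of the 11456 genes tested were lower and 18.2% higher in UIR and 16.9% and 20.5% in UUO. The median log2 fold change of the members was -1.23 in UIR and -1.44 in UUO, that of all genes 0.08 and 0.07. The summed level was 4098 to 5025 CPM in control, 2455 to 2719.6 in UIR and 2269 to 2529 in UUO. In each model all 3 carnitine shuttle genes, both regulators, all 6 tested uptake and activation genes, all 5 hydratase, dehydrogenase and thiolase genes and 6 of 7 dehydrogenase and electron transfer genes (all but Acads) fell. By contrast none of the 3 auxiliary enzymes and 1 of the 4 members of the last group, Adhfe1, did so. Both comparisons share the control libraries. Some of these calls did not hold or could not be tested after free RNA was subtracted, as given below. Of the uptake and activation genes these were Acsm1 and Acsm3 in both models and Acsm2 in UIR.

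Adhfe1 had the largest fall in UIR. It stood at 84.9, 67.7, 55.0, 73.9 and 58.6 CPM in control, at 5.96, 6.08 and 6.05 in UIR and at 3.81, 3.21 and 5.96 in UUO. The injured libraries lay far under every control, with a log2 fold change of -3.75 ± 0.23 (adjusted p = 5.4e-15) in UIR and -4.31 ± 0.25 (1.2e-15) in UUO. Slc27a2 stood at 42.5, 53.2, 23.6, 31.3 and 45.2 CPM in control, at 9.80, 9.97 and 6.71 in UIR and at 4.38, 3.75 and 5.96 in UUO (-2.36 ± 0.27 and -3.32 ± 0.31). Fabp3 stood at 315, 290.0, 338, 205 and 303 CPM in control, at 103, 58.6 and 58.8 in UIR and at 148, 105 and 138 in UUO. It fell in both models (-2.22 ± 0.22 and -1.40 ± 0.22), and no injured library reached the control range. Of the members at 20 CPM or more, Acsm2 had the largest fall in UUO, from 47.1 to 119.8 CPM in control to 0.892 to 3.86 CPM (-5.45 ± 0.68, adjusted p = 0.00018), with 12.4 to 36.2 CPM in UIR.

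Genes of the mitochondrial route and the coactivator Ppargc1a fell with it. Of those described here, Ppargc1a, Cpt1a, Hadha and Hadhb were in naive kidneys at a higher level than in PT, and Etfa (0.38 ± 0.11, PT minus loop of Henle) and Acadm (1.37 ± 0.10) at a lower one. Ppargc1a stood at 320.4, 372, 335, 236 and 258 CPM in control, at 141, 138 and 136 in UIR and at 97.5, 128 and 143 in UUO (-1.36 ± 0.15 and -1.55 ± 0.15). Cpt1a stood at 125 to 264 CPM in control, 85.8 to 103 in UIR and 60.6 to 91.5 in UUO (-1.27 ± 0.16 and -1.58 ± 0.17). Etfa stood at 284 to 388 CPM in control, 98.5 to 116 in UIR and 89.7 to 115 in UUO (-1.84 ± 0.15 and -1.94 ± 0.15). For all 3 the groups of control and injured libraries did not overlap. Hadhb fell from 239 to 299.7 CPM to 103 to 116 in UIR and 84.8 to 89.7 in UUO (-1.54 ± 0.13 and -1.84 ± 0.14), and its head-to-head neighbour Hadha from 199.6 to 324 to 159 to 184 and 140.2 to 144 (-0.82 ± 0.14 and -1.10 ± 0.15). Acadm fell by 1.38 ± 0.14 and 1.60 ± 0.14 on the log2 scale.

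Some members stayed within or near the control range in the same cells. Eci2 stood at 42.6 to 102 CPM in control, 64.3 to 67.4 in UIR and 60.6 to 66.9 in UUO (log2 fold changes -0.06 and -0.13). Hsd17b4, which acts on branched and very long chains, stood at 82.5 to 99.5, 91.5 to 99.7 and 84.1 to 92.4 CPM (-0.12 and -0.21). Acaa1a, Decr2, Nudt19, Acot1 and Acot2 did not pass either. Before any subtraction of free RNA the peroxisomal group was thus split, with Ehhadh, Pecr, Eci3 and Acaa1b among the genes that fell in both models. Of these, only Ehhadh still passed after the subtraction given below. Pecr then no longer passed, and Eci3 and Acaa1b could not be tested. Ehhadh stood at 16.0 to 28.8 CPM in control, 6.60 to 9.40 in UIR and 4.64 to 6.86 in UUO.

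Proximal RNA outside its own cells moved with part of this. PT markers summed to 247 to 475 CPM in loop of Henle pools of control, 60.7 to 133 in UIR and 16.1 to 25.3 in UUO, and the share of free RNA estimated from them was 2.98% to 12.4%, 2.24% to 4.95% and 1.19% to 1.45%. After subtraction, 21 of 27 calls were kept in UIR and 22 of 27 in UUO. Acsm1, Acsm3, Acaa1b and Eci3 could then no longer be tested. Pecr no longer passed in either model, and its log2 fold change shrank from -1.67 to -0.92 in UIR and from -1.92 to -0.32 in UUO. Acsm2 no longer passed in UIR (adjusted p = 0.107), although its log2 fold change went from -2.07 to -3.03. Adhfe1, Slc27a2, Fabp3, Ppargc1a, the carnitine shuttle, Etfa, Acadm, Hadha and Hadhb were among those kept. Between the models, Acsm2 (-3.38), Acsm3, Slc27a2 and Eci3 were lower in UUO than in UIR, where 1.21% of genes were lower and 1.6% higher, and none of the 4 passed after the subtraction. Acsm3 and Eci3 could then not be tested, Acsm2 had a log2 fold change of -2.85 (adjusted p = 0.732) and Slc27a2 went from -0.95 to 0.06.

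The fall also moved with a change in which loop of Henle cells were present. Clustering without the members placed 98.3% of control loop of Henle cells in a single sub-cluster (number 13), which held 4.33% of UIR and 0.754% of UUO cells, whereas 81.3% and 85.7% of the injured cells lay in another (number 0). Within sub-cluster 13, 0 of 28 members tested passed after UIR (median log2 fold change -0.10), where 0.367% of 4358 genes were lower and 0.62% higher. Its summed level was 4098 to 5159.7 CPM in control and 4033 and 4641 CPM in the 2 UIR libraries with 20 cells or more. Within sub-cluster 13, 4 members were lower and 1 higher at an unadjusted p under 0.05, a limit at which the share of all genes was not computed. This test, like those within sub-clusters of the classes below, was added after the data had been seen and took pools of 10 cells or more. It rested on few cells, 58 UIR cells in 3 libraries, of 12 to 25 cells each, and the size of difference that could pass was not computed. Within sub-cluster 13 the log2 fold changes after UIR were -0.26 ± 0.19 for Etfa, 0.28 ± 0.21 for Cpt1a and -0.50 ± 0.34 for Adhfe1. That of Slc27a2 was -2.17 ± 0.64 and did not pass (adjusted p = 0.0872). In these cells Cpt1a stood at 125 to 255 CPM in control and at 251 and 265 in UIR, and Adhfe1 at 55.3 to 89.0 and at 53.5 and 41.8. Slc27a2 stood at 24.5 to 53.2 CPM in control and at 10.7 and 9.28 in UIR.

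**Figure D4:**
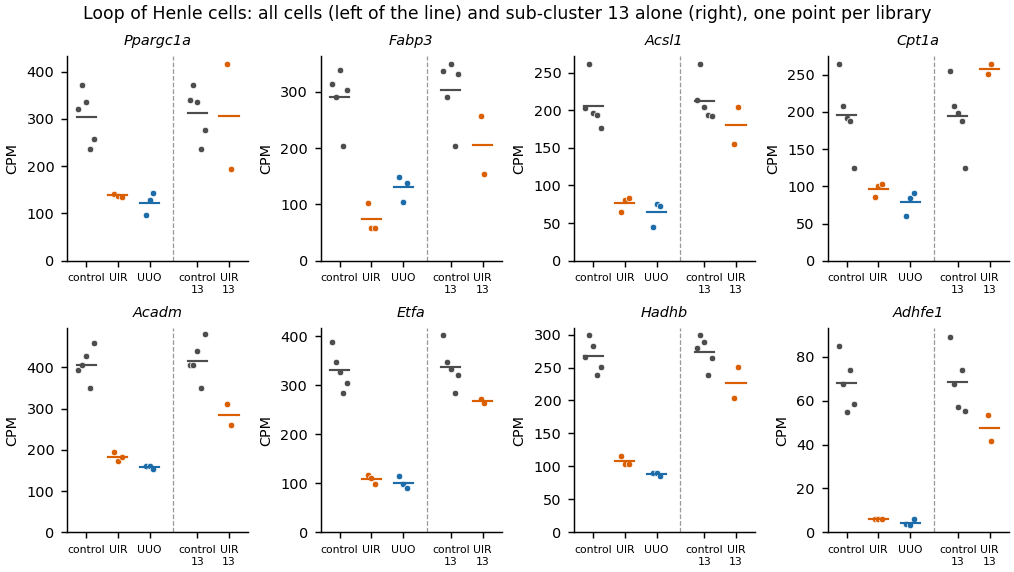
Levels of 8 members in loop of Henle, in CPM, 1 point per library. Left of the dashed line are all cells of control, UIR and UUO, and right of it the cells of sub-cluster 13 of control and UIR. Over all cells the injured points lie under the controls, while in sub-cluster 13 the UIR points lie closer to them, those of Cpt1a at 251 and 265 against 125 to 255 in control.

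Other measures moved with this fall. The markers of loop of Henle cells themselves summed to 18335 to 23949 CPM in control, 12940.2 to 13617 in UIR and 7545 to 8648 in UUO, failed-repair markers to 120.5 to 218, 891 to 1038 and 1151 to 1640 CPM, and mitochondrially encoded genes to 197354 to 239669, 94878 to 110709 and 79856 to 89259 CPM. With a limit of 15% mitochondrial UMIs, 13 members passed in UIR and 16 in UUO. The part of these changes in the fall of the members was not tested.

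In the distal tubule, too, most members fell. After UIR 26 of 36 members tested fell (16.8% of 10377 genes lower, 17.8% higher) and after UUO 31 of 36 (21.7% lower, 23.2% higher), and none rose. With a limit of 50% mitochondrial UMIs the counts were 15 and 1, and the cause was not tested. The median log2 fold changes were -0.98 and -1.79, those of all genes 0.04. All members of the carnitine shuttle, of the dehydrogenase and electron transfer group and of the hydratase, dehydrogenase and thiolase group fell in both models. Fabp3 stood at 414, 242, 382, 302 and 409 CPM in control, at 70.2, 58.7 and 41.8 in UIR and at 23.1, 47.0 and 63.4 in UUO, and had the largest fall in UIR (-3.01 ± 0.31, adjusted p = 2.2e-05). Adhfe1 stood at 55.2 to 72.0 CPM in control, 10.5 to 18.4 in UIR and 4.57 to 7.55 in UUO (-2.47 ± 0.21 and -3.97 ± 0.25), and Acsl1 at 87.2 to 168, 42.4 to 48.5 and 30.7 to 38.7 CPM (-2.03 ± 0.16 in UIR). Neither gene had an injured library inside the control range. Here Hadh and Echs1, with log2 fold changes of -0.50 and -1.18 in loop of Henle, fell by 1.55 ± 0.13 and 1.82 ± 0.13 on the log2 scale in UIR. Slc27a2 (-4.78 ± 1.08) and Acsm2 (-5.19 ± 0.91) fell in UUO. In UIR, where neither passed, the library UIR1 held both at levels above its fellows, 51.4 and 79.7 CPM against 6.18 to 16.7 and 13.8 to 26.6.

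The markers of distal tubule cells summed to 6322 to 12282 CPM in control, 1297 to 2287 in UIR and 425 to 695 in UUO. The sub-cluster with 98.3% of control cells (number 5) held 15.3% of UIR and 5.81% of UUO cells. Within it 3 of 31 members fell after UIR (Slc27a2, Acsl1 and Acadvl, median -0.38, against 0.35% of genes lower and 0.525% higher). At an unadjusted p under 0.05, 11 members were lower, and the share of all genes at that limit was not computed. This test rested on few cells, 65 UIR cells in 3 libraries, and the size of difference that could pass was not computed. At a finer clustering, 3 members passed in UIR and the UUO cells named distal tubule were too few to test. Free RNA subtraction kept 24 of 26 calls in UIR and 26 of 31 in UUO, where Acsm2, Acsm3, Acaa1b, Eci3 and Pecr could no longer be tested. In UIR, Ehhadh no longer passed, with a log2 fold change that went from -0.73 to -0.69 (adjusted p = 0.171), and Pecr could not be tested. The markers of PT summed to 238 to 404 CPM in distal tubule pools of control, 73.7 to 283 in UIR and 9.98 to 29.2 in UUO, and Lrp2, a PT marker, had a log2 fold change of -5.40 ± 0.40 in UUO, near those of Acsm2 and Slc27a2. Markers of other cells were higher in the models. The markers of failed repair summed to 52.1 to 125 CPM in distal tubule pools of control, 379 to 557 in UIR and 662 to 966 in UUO, and the markers of macrophage cells to 2.67 to 5.34, 33.8 to 54.5 and 38.3 to 70.7 CPM. The macrophage gene C1qa, without a UMI in control and at 11.1 to 22.0 CPM in the injured libraries, and Cp, a failed-repair marker (4.59 ± 1.41 and 6.36 ± 1.12), rose in both models, as did the principal cell gene Hsd11b2 (1.77 ± 0.45 and 1.29 ± 0.45). The part of these cells in the fall of the members was not tested.

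In the collecting duct members fell as well, and none rose. In principal cells, 12 of 33 members fell after UIR (6.05% of 10264 genes lower, 7.48% higher) and 22 after UUO (16.6% and 16.5%), with medians of -0.55 and -0.96. In UIR the largest at 20 CPM or more were those of Acaa2 (178 to 271 CPM in control, 116 to 133 in UIR, -0.89 ± 0.15), Eci1 (91.3 to 191 and 88.7 to 89.6 CPM, -0.76 ± 0.17) and Ppargc1a (151 to 255 and 125 to 132 CPM, -0.74 ± 0.20). In UUO, Cpt1a stood at 33.5, 43.0 and 46.2 CPM against 148, 102, 104, 108 and 77.2 in control (-1.59 ± 0.19, adjusted p = 5.4e-07). Ppargc1a stood at 51.5, 72.1 and 111 CPM (-1.54 ± 0.21). The UUO libraries lay under all controls for both. Acsm2 also fell (-5.29 ± 0.70). Acsm3 was listed at 0 in all 3 UUO libraries and at 4.82 to 10.4 CPM in control. Within the sub-cluster with 71.7% of control principal cells (number 11), 4 of 26 members fell after UIR (Nudt19, Acsl1, Eci1 and Acaa2, against 3.63% of genes lower and 2.61% higher). Sub-cluster 11 held 37.6% of principal cells in UIR and 2.87% in UUO, while sub-cluster 6 held 0.0% in control, 39.6% in UIR and 79.9% in UUO. The markers of CD principal cells summed to 12970.0 to 24271 CPM in control, 8171 to 9558 in UIR and 3199 to 4121 in UUO. The count in UIR was 8 without the library Ctrl and 7 without UIR2. With a limit of 15% mitochondrial UMIs it was 1 in UIR and 4 in UUO, and with 50% it was 7 in UIR. After free RNA was subtracted, 10 of 12 calls were kept in UIR and 16 of 22 in UUO. In UIR, Hadha no longer passed, with a log2 fold change that went from -0.47 to -0.46 (adjusted p = 0.0606), and Acsm3 could not be tested. Acsm2, Acsm3 and Slc27a2 could then not be tested in UUO. Cpt2, Hadh and Pecr no longer passed, with log2 fold changes that went from -0.71 to -0.59, from -0.53 to -0.43 and from -1.79 to -0.40. The markers of PT summed to 170 to 335 CPM in principal cell pools of control, 57.7 to 142 in UIR and 10.2 to 25.7 in UUO. The PT markers Slc34a1 (-5.17) and Miox (-5.56) had log2 fold changes in UUO near that of Acsm2. Other proximal markers differed in size, among them Cyp2e1 (-1.95), Acy3 (-2.66) and Slc22a6 (-6.93). The markers of macrophage cells summed to 0.0 to 14.9 CPM in control, 26.9 to 50.9 in UIR and 40.1 to 61.5 in UUO, and the markers of failed repair to 418 to 745, 489 to 754 and 694 to 1238 CPM. The macrophage gene C1qc rose in both models (2.56 ± 0.62 and 3.18 ± 0.57), as did Trpm6 (1.40 ± 0.29 and 2.10 ± 0.28), a magnesium channel of the distal convoluted tubule. Other distal nephron genes did not rise with Trpm6. Slc12a3, Calb1 and Slc8a1 did not pass in UIR (-0.15, -1.29 and -0.73) and fell in UUO (-3.53, -4.33 and -1.97). Vcam1, a failed-repair marker with no UMI in control, stood at 7.14 to 13.5 CPM in UIR and 12.4 to 76.6 in UUO, where it passed the test. The part of these shifts was not tested.

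In intercalated cells, 15 of 29 members fell after UIR (7.32% of 8385 genes lower, 6.19% higher) and 19 after UUO (14.0% and 12.2%), with medians of -0.60 and -0.95. With a limit of 15% mitochondrial UMIs the counts were 7 and 9. Sub-cluster 4 held 75.6% of these cells in control, 57.4% in UIR and 23.1% in UUO, and sub-cluster 7 held 24.4%, 42.6% and 76.9%. The markers of CD intercalated cells summed to 7199 to 9882 CPM in control, 6890.4 to 8616 in UIR and 6869.8 to 7394 in UUO, but single markers moved in both models. The exchangers Slc4a1 and Slc26a4 mark the subtypes of these cells. Slc4a1 fell in UIR (-1.84 ± 0.23, adjusted p = 5.8e-05) and UUO (-3.70 ± 0.26), and Slc26a4 in UUO (-4.29 ± 0.48), while in UIR it did not pass (-0.55 ± 0.36). The macrophage gene C1qa rose in both (3.42 ± 0.61 and 3.65 ± 0.60), and the markers of macrophage cells summed to 0.0 to 11.7 CPM in control, 35.7 to 71.2 in UIR and 39.3 to 88.6 in UUO. The failed-repair marker Vcam1 rose as well (2.87 ± 0.79, adjusted p = 0.0104, and 4.47 ± 0.65, 1.05e-06), while the markers of failed repair summed to 241 to 488 CPM in control, 308 to 456 in UIR and 395 to 569 in UUO. The part of these shifts was not tested. Cpt1a stood at 119.6, 91.6, 125, 98.8 and 74.7 CPM in control, at 44.8, 65.8 and 65.3 in UIR and at 42.1, 49.9 and 46.7 in UUO, and fell in both (-0.99 ± 0.18 and -1.43 ± 0.19). Adhfe1 stood at 27.8 to 70.2 CPM in control and at 22.1 to 27.1 and 11.1 to 19.3 in the models (-1.07 ± 0.25 and -1.84 ± 0.28), and Fabp3 at 29.0 to 102, 1.35 to 9.21 and 1.61 to 14.9 CPM (-3.68 ± 0.71 and -3.03 ± 0.69). No injured library overlapped the controls for these 3 genes. Markers of other distal classes fell here too. Calb1 fell in both models (-2.38 and -4.33), and Kcnj1 (-4.85), Hsd11b2 (-3.58) and Aqp2 (-7.13) in UUO. The loop of Henle markers Slc12a1 and Umod passed in neither model. Fabp3 was at a higher level in control loop of Henle and distal tubule, and free RNA was estimated here from proximal genes. The part of RNA from other distal cells in the fall of Fabp3 was not tested. Ppargc1a did not pass here, at 140.1 to 239 CPM in control, 147 to 199 in UIR and 166 to 248.9 in UUO, nor did Acaa2. Hsd17b4, which did not pass in loop of Henle or distal tubule, fell from 118 to 182 CPM to 90.2 to 92.9 in UIR and 85.2 to 90.2 in UUO (-0.78 ± 0.15 and -0.97 ± 0.15). Slc27a2 and Acsm2 fell in UUO (-4.44 ± 0.75 and -4.64 ± 0.98), and neither could be tested after free RNA was subtracted. The markers of PT summed to 129.5 to 646 CPM in intercalated cell pools of control and 17.7 to 24.4 in UUO.

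**Figure D5:**
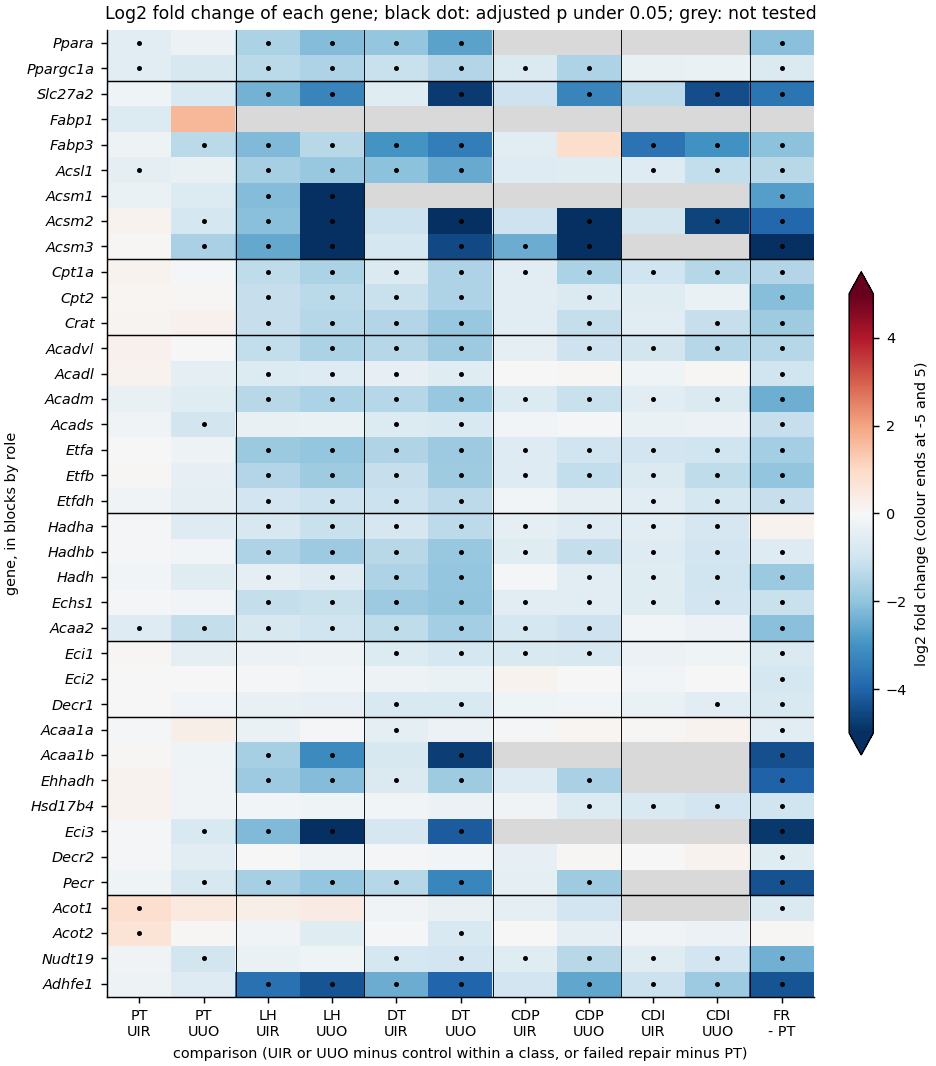
Log2 fold changes of the 38 members (rows, by role group) in 11 comparisons (columns): UIR and UUO minus control in PT, loop of Henle, distal tubule, CD principal and CD intercalated cells, and failed repair minus PT. Colour runs from -5 to 5, a dot marks an adjusted p under 0.05 and grey a gene not tested. The PT columns are mostly pale and the distal columns mostly of the lower colour. The colour of a gene at 0 in a whole group, such as Acsm3 in CD principal cells of UUO, is no bound on its change.

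Across the 5 tubular classes and both models, Eci2 and Decr2 passed in no comparison with control. Acaa1a passed only in distal tubule of UIR, and Acot1 only in PT of UIR. Acot2 rose in PT of UIR and fell in distal tubule of UUO. Hadha and Hadhb, shown above with their shared stretch, both passed as lower in all distal comparisons and in neither PT comparison, and the log2 fold change of Hadhb was more negative than that of Hadha in each distal comparison. After free RNA was subtracted, Hadha no longer passed in CD principal cells of UIR.

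Whether PT and loop of Henle responded differently was tested as the difference of their fold changes within libraries. After UIR, 24 of 38 members had a less negative or more positive response in PT than in loop of Henle and none the opposite, where 9.97% of 12872 genes were higher and 7.76% lower. The median difference was 1.03 on the log2 scale, that of all genes -0.10. The largest were those of Adhfe1 (3.47 ± 0.27), Acsm3 (2.51 ± 0.52) and Acsm2 (2.27 ± 0.32). After UUO, 16 members were higher and 1 lower (2.84% of genes higher, 6.54% lower), led by Eci3 (4.12 ± 0.98), Acsm2 (4.05 ± 0.42) and Acsm3 (3.34 ± 0.79). The value of Eci3 reversed to -4.22 with a limit of 15% mitochondrial UMIs, under which 5 members passed after UIR and 4 after UUO. The exception was Nudt19 (-0.90 ± 0.30, adjusted p = 0.035), which fell in PT and did not pass in loop of Henle. The UUO count was 10 without the library UUO2. After free RNA was subtracted, 21 of 24 and 12 of 17 calls were kept. Eci3 no longer passed, at 2.69 in UIR (from 2.09, adjusted p = 0.0644) and 2.80 in UUO (adjusted p = 0.155). The others that no longer passed were Acaa1b (1.717 to 1.749) and Pecr (1.47 to 0.81) in UIR, and in UUO Acsm3 (to 2.41), Acsm1 (3.21 to 2.81), Acaa1b (2.53 to 1.81) and Slc27a2 (1.91 to 1.05). All kept their direction.

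Failed-repair cells, which carry Vcam1, Cp and other markers of unresolved injury, held most of the programme at a lower level than PT of the same kidneys. In UIR and UUO libraries, 35 of 37 members were lower and none higher in failed-repair cells than in PT. Of 9520 genes tested, 19.7% were lower and 38.6% higher. At the median the log2 fold change was -1.68, and 0.31 over all genes. The summed level was 2245 to 3571 CPM in UIR and 1837 to 2610.3 in UUO failed-repair cells, against 10213 to 10848 and 8510.2 to 9441 CPM in PT. PT markers summed to 421 to 1921 and 52.5 to 694 CPM in these cells, and the markers of failed repair to 3340.0 to 4128 and 2886 to 3689.9 CPM.

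The largest differences were those of an activation enzyme and of peroxisomal enzymes. Acsm3 stood at 21.4, 3.805 and 0.785 CPM in UIR and at 0, 2.38 and 11.1 in UUO failed-repair cells, with a log2 fold change of -6.54 ± 0.53 (adjusted p = 3.2e-06). Eci3 stood at 10.7, 19.2 and 9.42 CPM and at 1.42, 14.3 and 11.1 (-4.83 ± 0.25), and Acaa1b at 29.4, 25.3 and 11.4 and at 0, 16.2 and 11.1 (-4.41 ± 0.32). None of these libraries came near PT, where Eci3 was at 199.98 CPM or more. Pecr (-4.37), Adhfe1 (-4.31) and Ehhadh (-4.05) followed. Hadha and Acot2 did not pass. Hadha stood at 142, 106 and 115 CPM in UIR and 118, 109.7 and 99.9 in UUO failed-repair cells (0.18 ± 0.20, adjusted p = 0.44), while Hadhb was lower (-0.66 ± 0.21). The smallest difference that passed was that of Acaa1a (-0.51 ± 0.19).

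Between UUO and UIR failed-repair cells no member of 36 tested passed, and 0.0% of all 10247 genes were lower or higher by edgeR. At an unadjusted p under 0.05, 2 members were lower, and the share of all genes at that limit was not computed. The median of the members was -0.45. The class held 2 sub-clusters. In sub-cluster 8 (Ubd, C3 and Vcam1 among its leading genes) 30 of 37 members were lower than in PT, with a median of -1.22, where 20% of all genes were lower and 20.2% higher. In sub-cluster 10 (Tagln and Tnc) 35 were lower, with a median of -2.12, where 21.8% of all genes were lower and 47.8% higher and the median of all genes was 0.46. The summed level was 3787 to 4945 CPM in the former and 1621 to 1813 in the latter in UIR. PT markers were at 1230.7 to 2659 CPM in sub-cluster 8 and at 92.7 to 196 in sub-cluster 10. Sub-cluster 10 held 43.3% of UIR and 62.6% of UUO failed-repair cells. Whether the cells of either sub-cluster arose from PT was not tested, so a lower level than in PT is a difference between classes. Subtraction of free RNA kept 28 of 35 calls, and the 7 others stayed lower with an adjusted p of 0.0727 (Eci2) to 0.322 (Acot1). Of these, Hadhb went from -0.66 to -0.78, Acaa1a from -0.51 to -0.47 and Acot1 from -0.72 to -0.33. The subtraction takes proximal RNA out of failed-repair pools and can lower PT-type genes there further. Acsm3 went from -6.54 to -10.6 and Acsm2 from -3.94 to -7.37. A kept call is therefore no support for a lower level. The estimated share of free RNA in failed-repair pools ran from 2.66% to 100%. Whether the PT markers that set this share come from free RNA or from these cells was not tested.

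The other genes of the pathway were followed in 7 lists with 129 genes. Of all genes tested in PT, 4.96% were lower and 8.46% higher after UIR, beside which the counts of this paragraph stand. In PT of UIR, 2 of 17 tested genes of other mitochondrial beta-oxidation fell and 1 rose, led by the carnitine transporter Slc22a5 (-0.60) and by Acot9 (0.61). Of 13 other uptake, binding and activation genes 1 fell (Acsm5, -0.39) and 2 rose, among them the acyl-CoA binding protein Dbi (0.57). Of 33 other peroxisomal enzymes and transporters, 1 fell (the branched-chain acyl-CoA oxidase Acox3, -0.81) and 2 rose (the epoxide hydrolase Ephx2, 0.47, and Pxmp4, 0.32). Among 16 genes of the PPAR family, its partners and known targets, 2 rose, among them Cyp4a10 (0.61), and none fell. No gene passed among 16 peroxisome biogenesis factors and 7 ketone body enzymes, and of 14 synthesis and storage genes 2 rose.

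After UUO, 1.84% of all genes tested in PT were lower and 2.4% higher. In PT of UUO, Agps (-0.95) and Acox3 (-0.88) were 2 of the 3 other peroxisomal genes that fell, and Hao2 (1.15) rose. Oxct1, which activates ketone bodies for use as fuel, fell (-0.82), 1 of 7 ketone body enzymes. Fabp4 (4.76) and Scd2 (3.33) rose, and Fabp4 was also higher in UUO than in UIR (4.30). Fabp4 is also a gene of endothelial cells, whose 5 markers summed to 2.74 to 6.48 CPM in control, 8.88 to 12.8 in UIR and 23.0 to 161 in UUO PT, and their part in this was not tested. The remaining lists, including peroxisome biogenesis and the PPAR list, had no call in PT of UUO.

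The counts that follow stand beside the shares of all genes that were lower, 14.5% and 16.9% in loop of Henle of UIR and UUO, 16.8% and 21.7% in distal tubule, 6.05% and 16.6% in CD principal and 7.32% and 14.0% in CD intercalated cells, and 19.7% in failed repair against PT. In loop of Henle of UIR, 8 of 17 other mitochondrial, 15 of 29 other peroxisomal and 5 of 6 ketone body genes fell, and 0, 1 and 0 rose. The median log2 fold change of the ketone body enzymes was -2.21 in UIR and -2.81 in UUO. Peroxisome biogenesis had 3 of 16 genes lower, with a median of -0.12. Synthesis and storage went either way, with 3 of 14 lower and 4 higher. In distal tubule 11 of 16 other mitochondrial genes fell in UIR and 10 in UUO, 15 and 18 of 28 other peroxisomal genes and 4 and 5 of 6 ketone body enzymes. In CD principal cells the corresponding counts were 4 and 8 of 16, 6 and 12 of 27 and 2 and 3 of 5, and in CD intercalated cells 6 and 8 of 14, 7 and 11 of 21 and 3 and 3 of 4. Of these lists at most 2 genes rose in any of these comparisons. Biogenesis factors had at most 4 genes lower and 1 higher in any of them. In failed-repair cells against PT, 27 of 30 other peroxisomal, 13 of 17 other mitochondrial and 6 of 7 ketone body genes were lower, as were 7 of 16 biogenesis genes, with 0, 1, 0 and 0 higher.

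Several members have relatives among the others, and how well their sequences can be told apart was not examined. Acaa1a and Acaa1b on chromosome 9 (119339676 to 119350299 and 119148023 to 119157093), Eci2 and Eci3 on chromosome 13 (34977748 to 35027096 and 34946614 to 34963810) and Acsm1, Acsm2 and Acsm3 on chromosome 7 (119554340 to 119787513) are paralogs. Whether reads shared between them were counted, and for which gene, is not given in the sources used here.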

How the data were processed

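The authors deposited raw UMI counts for all barcodes of 11 libraries, per the file headers from Cell Ranger 3.1.0 on mm10, with 28692 genes. UMIs count captured molecules, so no length scaling was applied. The members and gene lists were chosen with earlier results of these data known.

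Barcodes were called as cells above 0.1 of the 99th percentile of the 3000 deepest, or, from 500 UMIs, where they differed from the empty-droplet profile (ranks 45000 to 90000, multinomial test with 10000 simulations, FDR 0.01). Cells needed 200 genes, at most 30% mitochondrial and 5% haemoglobin UMIs. The 7.5% of cells per library with the most simulated doublets among their neighbours were removed. Members and pathway lists were left out of the clustering (2000 variable genes, 40 components, 20 neighbours, Leiden resolution 1, with 30 components in sub-clusters), and clusters were named from fixed markers, so class names are rebuilt here. The limits that a cluster had to reach to be named were set with the marker values of these clusters in view. Counts were summed per library and class with at least 20 cells and tested with edgeR 4.0.16 (filterByExpr, TMM, quasi-likelihood F-test, two-sided, Benjamini-Hochberg over all genes of the fit, adjusted p under 0.05) in R 4.3.3. All groups of a class shared 1 fit. Comparisons of 2 classes had library as a block, and the difference of responses was the class by group interaction. No failed-repair pool of control reached 20 cells. Fold changes are log2 with their SE, and levels are CPM, computed here from the counts.

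Role groups were accounted for in full. Library values were given for up to 3 members per role group with the highest mean level in PT, and for up to 3 called members per direction with the largest fold change, at a mean of 20 CPM or more. In other comparisons up to 3 called members per direction were named, and of the 7 pathway lists up to 2 per direction in PT. Other members were named after their values had been seen.

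The fit was tested on simulated counts with 200 changed genes. Alternatives were DESeq2 1.42.0, RLE scaling, no low-count filter, other mitochondrial and UMI limits, subtraction of free RNA, another clustering resolution, left-out libraries and a replicate block. Python 3.11.15, scipy 1.17.1, leidenalg 0.10.2 and matplotlib 3.10.9 were also used. Control libraries carry 3 label stems (Ctrl, N and AN). The labels give no such batch for the injured libraries, so no within-batch value can be had, and batch and group cannot be told apart.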

Additional observations from a re-analysis of the deposited data

Results flagged for a closer look

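Among 30 groups of control libraries tested for a single library far from its group, 4 had one, where chance gives about 1 in 20. In PT, the control library N2 was high for both regulators, with Ppargc1a at 87.3 CPM against 55.4 to 62.5 in the other control libraries and Ppara at 53.1 against 46.7 to 47.7. The control library Ctrl was high in PT for Acsm2, at 2618 CPM against 1626 to 1913, and for the summed level of the members, at 12589 CPM. Ctrl is also the library whose empty droplets held the members at 10634 CPM. Its part in the results was measured by leaving it out. Without it, PT had 6 members called in UIR and 8 in UUO, as with it.

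The response of PT differed from that of loop of Henle, by the test of the difference itself, for 24 members after UIR and 17 after UUO. After UIR the differences (PT minus loop of Henle, log2) were led by Adhfe1 (3.47), Acsm3 (2.51) and Acsm2 (2.27). After UUO they were led by Eci3 (4.12), Acsm2 (4.05) and Acsm3 (3.34), and Nudt19 ran the other way (-0.90). With a limit of 15% mitochondrial UMIs, Eci3 reversed to -4.22 and the counts were 5 and 4. The control loop of Henle pools held PT markers at 247 to 475 CPM, and those of UUO at 16.1 to 25.3 CPM. With free RNA subtracted, 21 and 12 of the calls were kept. Eci3 no longer passed, at 2.69 after UIR (2.09 before the subtraction) and 2.80 after UUO, nor did Acsm3 after UUO, at 2.41.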

How the results depend on the processing

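Of 413 alternatives for the 18 counts of members called, 376 stayed within 1.5 times the main count, and of 1293 alternatives for 57 named values 1224 kept direction and call, 68 kept direction only and 1 reversed, the response of Eci3 to UUO (-4.22 at a limit of 15% mitochondrial UMIs). That limit gave 3 calls in PT of UIR, 4 in PT of UUO, 0 between UUO and UIR in PT, 13, 16 and 1 in loop of Henle (UIR, UUO and between them), 1 and 4 in CD principal, 7 and 9 in CD intercalated cells and 5 and 4 for the responses to UIR and UUO; it left no value for PT against loop of Henle or for the segments in control. A limit of 50% gave 0 between UUO and UIR in PT and 8 in loop of Henle, 15 and 1 in distal tubule and 7 in CD principal cells of UIR. The cause was not tested. Subtraction of free RNA gave 5 in PT of UUO and 0 between the models in loop of Henle. At least 1000 UMIs gave 0, and RLE scaling 1, between the models in PT, and no low-count filter gave 7 between them in loop of Henle. S2-like cells alone gave 3 in PT of UIR. Sub-clusters 13, 5 and 11 alone gave 0, 3 and 4 in UIR, with fewer cells. Leiden resolution 2 gave 3 in distal tubule of UIR, and no value in UUO.

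Leaving out single libraries gave 0 to 8 calls between UUO and UIR in PT and 1 to 5 in loop of Henle, 7 to 14 in CD principal cells of UIR and 10 to 19 for the response to UUO. The lone extremes came without UUO2 (8 and 10) and UIR2 (7). The other ranges were 4 to 8 and 6 to 10 in PT, 24 to 29 and 26 to 31 in loop of Henle, 23 to 27 and 28 to 31 in distal tubule, 19 to 25 in CD principal cells of UUO, 12 to 17 and 19 to 22 in CD intercalated cells, 0 between the models and 32 to 35 against PT in failed repair, 33 to 36 and 32 to 34 in the control contrasts and 21 to 25 for the response to UIR.

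Replicate numbers were not taken to pair the libraries. Same-numbered libraries had correlations of deviations from -0.22 to 0.67 with class medians from -0.014 to 0.063. Here the unnumbered libraries Ctrl, UIR and UUO were counted as same-numbered. Other pairs ran from -0.52 to 0.51. The replicate block gave 6 calls in PT of UIR and 9 in UUO, 2 between them, 28, 28 and 6 in loop of Henle, 26 and 31 in distal tubule, 12 and 21 in CD principal, 16 and 19 in CD intercalated and 0 in failed-repair cells. The comparisons with library as a block could not take it.

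The 33 to 88 PT cells of UUO libraries limit that comparison.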

Other observations

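Over all non-tubular cells the summed level of the members was 1395 to 1903 CPM in control, 1131 to 1357 in UIR and 1003 to 1205 in UUO libraries. The share of free RNA estimated in these pools was 5.07% to 16.2% in control, 6.41% to 13.8% in UIR and 3.63% to 6.14% in UUO, and the markers of PT summed there to 466 to 759, 185 to 408 and 151 to 161 CPM. How much of the members' level came from free RNA was not tested. The 7 ketone body enzymes summed in the same pools to 241 to 346, 229 to 245 and 191 to 206 CPM. Cell makeup differed between the groups, and no test was run on these pools.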
